A study of Mus musculus with 18 samples.

Results

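The genes described here are the 3 inducible catalytic subunits of the immunoproteasome (Psmb8, Psmb9 and Psmb10), the 3 constitutive catalytic subunits they can replace (Psmb5, Psmb6 and Psmb7) and the 2 subunits of the interferon-inducible activator PA28 (Psme1 and Psme2). They were taken by name for their roles, and all 8 were among the 24062 gene symbols counted. The samples were cultures of NIH3T3, an established line of mouse embryonic fibroblasts (called WT here), and of NIH3T3-mCherry-mTRIM21 (called TRIM21), a line made from it that carries a fusion of the red fluorescent protein mCherry and mouse TRIM21. TRIM21 is a ubiquitin ligase and a cytosolic antibody receptor that can send an antibody together with its target to the proteasome. Each line was electroporated at 1400 V with 2 pulses of 20 ms, in the presence of 7.5 µg of an IgG antibody, 7.5 µg of bovine serum albumin (BSA) or PBS without protein, and RNA was taken 16 h later. This gave 6 groups of 3 samples, numbered 10, 11 and 14 in the labels, and all 18 cultures had been electroporated. The promoter that drives the fusion, and whether the line is 1 clone or a pool, are not given in the sources used here, so an effect of the fusion cannot be told apart from other differences between these lines.

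The proteasome degrades ubiquitin-tagged proteins in a barrel-shaped core whose active sites lie on 3 kinds of catalytic subunit. In cells exposed to interferon, and in many immune cells, newly built cores take up Psmb8 in place of Psmb5 (chymotrypsin-like site), Psmb9 in place of Psmb6 (caspase-like site) and Psmb10 in place of Psmb7 (trypsin-like site), which alters the peptides made for display on class I molecules. Psme1 and Psme2 form a ring that caps the core and opens it without the need for ubiquitin.

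By GENCODE's annotation (build GRCm38) all 8 genes are protein coding. Psmb9 (chr17:34181987-34187764, minus strand) and Psmb8 (chr17:34197721-34201454, plus strand) lie in the class II region of the major histocompatibility complex, interleaved with Tap1 and Tap2, which encode the peptide transporter. Psmb9 overlaps the divergent Tap1 by 212 bp, Tap1 ends 495 bp before Psmb8, and Tap2 begins 2072 bp after it. Psmb10 (chr8:105935735-105938444, minus strand) lies apart. Psme1 (chr14:55578123-55581529, plus strand) and Psme2 (chr14:55587441-55591113, minus strand) face each other 5911 bp apart. Psmb5 (chr14:54614119-54618022, minus strand), Psmb6 (chr11:70525367-70527858, plus strand) and Psmb7 (chr2:38588036-38644087, minus strand) are on different chromosomes. Psmb11, the catalytic subunit of the thymus, begins 3410 bp from Psmb5, and Mir686 overlaps Psmb5 and Nek6 overlaps Psmb7.

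The stretches before the start sites are shown because the inducible and constitutive subunits are known for different upstream signals, interferon for the first and the transcription factors that answer to proteasome shortage or oxidative stress for the second. They are RefSeq sequences of build GRCm38.p6, up to 250 bases before the RefSeq start, 5′ to 3′ on the gene's strand, with every match to any of 4 motifs in capitals. The motifs, searched on both strands, were the interferon-stimulated response element core (GAAA, any 2 bases, GAAA), the gamma-activated sequence (TTCNNNGAA, which reads the same on both strands), the antioxidant response element core (TGACNNNGC) and the CCAAT box (CCAAT). The 4 stretches were chosen because each holds a match. RefSeq and GENCODE starts differ, so the stretches of Psmb8 and Psmb9 lie within the gene spans given above and that of Psmb5 does so in part. The stretch of Psmb9 is cut to the bases it shares with the 250 bases before the start of Tap1 on the opposite strand.
Psmb8, chr17:34197945-34198194, plus strand: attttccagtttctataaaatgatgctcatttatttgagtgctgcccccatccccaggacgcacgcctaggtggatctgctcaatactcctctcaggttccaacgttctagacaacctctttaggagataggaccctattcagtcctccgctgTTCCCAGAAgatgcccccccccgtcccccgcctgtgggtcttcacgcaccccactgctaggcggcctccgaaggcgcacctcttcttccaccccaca
Psmb9 and Tap1, chr17:34187331-34187555, minus strand: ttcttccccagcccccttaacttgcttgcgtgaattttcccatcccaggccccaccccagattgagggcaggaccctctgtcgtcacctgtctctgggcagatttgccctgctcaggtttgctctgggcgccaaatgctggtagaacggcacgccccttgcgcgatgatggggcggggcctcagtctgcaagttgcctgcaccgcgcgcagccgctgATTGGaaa
Psmb5, chr14:54617996-54618245, minus strand: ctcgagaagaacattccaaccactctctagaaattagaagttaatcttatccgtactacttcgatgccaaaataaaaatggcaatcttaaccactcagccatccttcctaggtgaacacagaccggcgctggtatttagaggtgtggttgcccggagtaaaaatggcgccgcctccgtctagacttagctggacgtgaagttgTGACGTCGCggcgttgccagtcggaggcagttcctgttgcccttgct
Psmb6, chr11:70525107-70525356, plus strand: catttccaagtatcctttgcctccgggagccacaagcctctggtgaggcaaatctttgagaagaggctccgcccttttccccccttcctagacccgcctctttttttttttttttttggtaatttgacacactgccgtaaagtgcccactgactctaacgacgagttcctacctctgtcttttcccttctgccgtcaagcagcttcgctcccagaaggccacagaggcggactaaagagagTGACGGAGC

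The match in Psmb8 is to the gamma-activated sequence and begins 97 bases before the start, the one in Psmb9 is to the CCAAT box and begins 8 bases before it, and those in Psmb5 and Psmb6 are to the antioxidant response element core, 47 and 9 bases before it. The RefSeq table held a sequence for 7 of the 8 genes, none of them for Psmb7, and none of the 7 genes held the interferon-stimulated response element core in these 250 bases. Psmb10, Psme1 and Psme2 (which has 2 annotated starts) held none of the 4 motifs there. Their stretches are not printed. That of Psme1 also lies within its GENCODE gene span, and those of Psmb10 and Psme2 do so in part. Over all 32851 promoters of the table, 2.98% held the interferon-stimulated response element core, 7.02% the gamma-activated sequence, 10.16% the antioxidant response element core and 33.85% the CCAAT box. A match is a run of letters and was not tested as a binding site.

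The 18 libraries held 19509017 to 29766433 reads assigned to genes, and 13.1% to 18.8% of the counted reads lay outside annotated genes. Trim21, the check of the labels, was at 8.02 ± 1.13 CPM (gene-assigned reads per 1000000, scaled by TMM; SD, n = 9) in WT and at 1038 ± 63.6 CPM (SD, n = 9) in TRIM21. On principal components of the tested genes the TRIM21 PBS sample numbered 11 lay farthest out, at -46.1 on the first and 24.9 on the second. Among WT samples it was the PBS sample numbered 14, at 28.2 and 19.47, and the differences that moved most without either are given without it below. The cells matched their label: 7 of 7 fibroblast markers were present in every sample, with a summed level of 17961 to 23316 CPM in WT and 13494 to 21684 CPM in TRIM21. Markers of leukocytes, in which the inducible subunits are abundant, summed to 2.54 to 3.55 CPM in WT and 2.26 to 4.001 CPM in TRIM21. Of these 8 markers Cd3e had no read, 7 never reached 1 CPM, and the rest of the signal was Csf1r at 43 to 83 reads. Epithelial markers (4, with Krt5 at 0) summed to at most 2.25 CPM and endothelial markers (3) to at most 2.45 CPM. Nothing in the labels says how the replicate cultures were made, so p-values measure the spread between these samples, which may be technical.

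Fibroblasts of both lines expressed Psmb6, Psmb7 and PA28 at high levels, Psmb5 and Psmb10 at lower levels, and Psmb9 and Psmb8 at very low levels. Levels of different genes were compared as RPKM, that is CPM per kilobase of annotated exon, over all 18 samples. Psmb6 was highest at 79.2 ± 11.6 RPKM (SD, n = 18 here and for the next 7 values). Psme2 followed at 41.6 ± 3.99 RPKM and Psmb7 at 37.7 ± 4.09 RPKM. Psme1 was at 22.1 ± 2.02 RPKM and Psmb5 at 13.2 ± 2.97 RPKM. The 3 inducible subunits closed the order, all below the 5 other genes. Psmb10 was at 6.18 ± 1.47 RPKM, Psmb9 at 0.387 ± 0.0872 RPKM and Psmb8 at 0.0289 ± 0.0194 RPKM.

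Between neighbours in that order the sample ranges overlapped for Psmb6 and Psme2, for Psme2 and Psmb7, and for Psmb5 and Psmb10. Within each sample Psmb6 was nevertheless above Psme2 in 18 of 18, Psme2 above Psmb7 in 17 of 18 and Psmb5 above Psmb10 in 18 of 18. The steps from Psmb10 to Psmb9 (16.0-fold) and from Psmb9 to Psmb8 (13.4-fold) were the largest in the order.

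The levels of Psmb5 and Psme2 carry an uncertainty that the others do not. Of the 50-base windows of their longest transcripts, 57.06% for Psmb5 and 59.26% for Psme2 also occur in transcripts of other genes (Psmb5-ps, Gm3375 and Mir686 for Psmb5, Psme2b and Gm7928 for Psme2), and reads from such windows may not have been assigned. For the other 6 genes the share was 0% to 4.95%. When only windows found in no other gene were taken as the length, a choice made after seeing the data, Psme2 came to 197 RPKM and passed Psmb6 at 165 RPKM, and Psmb5 at 32.5 RPKM passed Psme1 at 25.8 RPKM. The order of the 3 inducible subunits at the bottom was the same with that length, with the longest transcript as length and without TMM. Exons of Psmb8, Psmb9 and Psmb7 also overlap antisense genes over 14.73%, 5.79% and 11.84% of their length, and whether the counting of these strand-specific libraries used strand is not given in the sources used here.

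**Figure D1:**
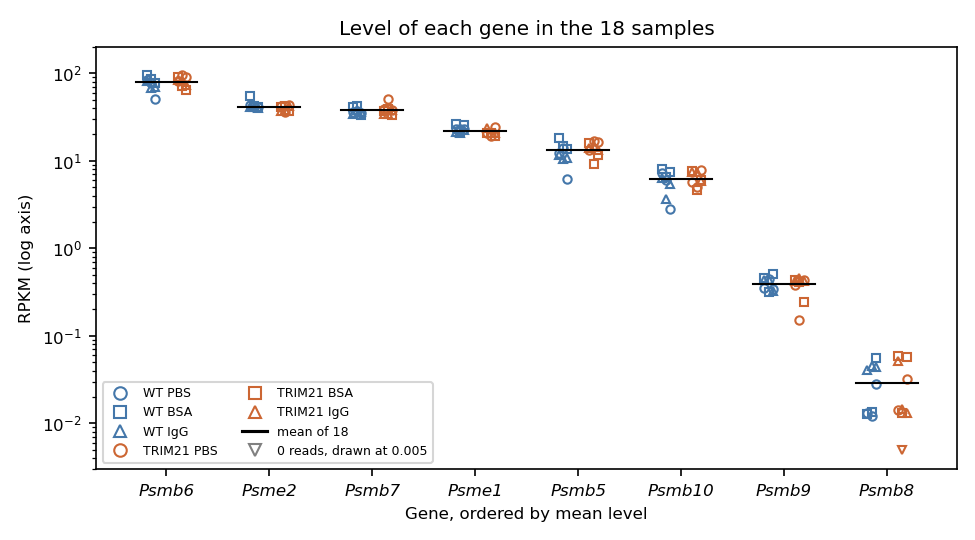
Level of each gene in RPKM on a log axis, with 1 point per sample coloured by line and shaped by treatment, and a bar at the mean of the 18 samples. Psmb6 stands at a mean of 79.2, Psmb10 at 6.18, Psmb9 at 0.387 and Psmb8 at 0.0289, and WT and TRIM21 points overlap for every gene. The TRIM21 PBS sample numbered 11 had no Psmb8 read.

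Psmb8, the inducible counterpart of Psmb5, was near the limit of detection. In WT, in the order of the numbers 10, 11 and 14, it had 1, 1 and 2 reads after PBS, 1, 1 and 5 after BSA and 3, 3 and 3 after IgG. In TRIM21 it had 1, 0 and 3 reads after PBS, 5, 1 and 6 after BSA and 4, 1 and 1 after IgG. All groups overlapped except that the 3 WT IgG samples lay above the 3 WT PBS samples by single reads. Summed over 9 samples each, WT had 20 reads (0.0998 CPM, exact Poisson 95% interval 0.0610 to 0.154) and TRIM21 22 reads (0.103 CPM, 0.0647 to 0.156). These intervals cover counting error only. A floor of 3 counts per library corresponds to 0.101 to 0.154 CPM, so Psmb8 was at or under 3 reads in 8 of 9 WT and 6 of 9 TRIM21 samples. It did not pass the filter on low counts and was left out of the tests below. In the edgeR quasi-likelihood fit without that filter it had no call in any comparison, with a log2 fold change of -0.020 (SE 0.499, adjusted p = 0.9999) for the average difference between the lines.

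Psmb9, the inducible counterpart of Psmb6, was detected in every sample at 11 to 49 reads. In WT it was at 1.29, 1.62 and 1.25 CPM after PBS, 1.66, 1.15 and 1.84 CPM after BSA and 1.58, 1.57 and 1.18 CPM after IgG. Its TRIM21 levels were 1.38, 0.550 and 1.61 CPM after PBS, 1.59, 1.52 and 0.883 CPM after BSA and 1.57, 1.68 and 1.57 CPM after IgG. The 6 groups overlapped, and the lowest value was that of the TRIM21 PBS sample numbered 11. Tap1, whose 5′ end overlaps that of Psmb9 on the other strand, was at 3.11 ± 0.444 RPKM (SD, n = 18) against 0.387 RPKM for Psmb9.

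Psmb10, the inducible counterpart of Psmb7, was the inducible subunit with the highest level, at 100 to 377 reads. In WT it was at 12.5, 10.3 and 4.79 CPM after PBS, 13.6, 11.1 and 12.6 CPM after BSA and 10.8, 6.29 and 9.17 CPM after IgG. In TRIM21 it was at 9.79, 8.55 and 13.5 CPM after PBS, 13.1, 7.92 and 10.2 CPM after BSA and 12.7, 12.7 and 10.1 CPM after IgG. The WT PBS sample numbered 14 was the lowest of the 18. The WT BSA samples all lay above the WT IgG samples, and every other pair of groups within a line or treatment overlapped.

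Among the constitutive subunits Psmb5 varied most, with 116 to 411 reads. In WT it was at 10.995, 12.7 and 5.56 CPM after PBS, 16.6, 13.1 and 12.3 CPM after BSA and 10.5, 9.44 and 9.61 CPM after IgG. In TRIM21 it was at 11.8, 15.1 and 14.7 CPM after PBS, 14.5, 8.23 and 10.5 CPM after BSA and 12.6, 13.4 and 11.9 CPM after IgG. The WT PBS sample numbered 14 was again the lowest and the WT BSA sample numbered 10 the highest. The WT IgG samples lay below both the WT BSA and the TRIM21 IgG samples without overlap. They also had a higher share of reads outside annotated genes (16.3% to 17.3%). It was 13.1% to 15.9% in the WT BSA and 15.2% to 16.2% in the TRIM21 IgG samples. The part of that share in these gaps was not tested.

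Psmb6, with 2005 to 4704 reads, had its lowest and highest values in the same samples as Psmb5. In WT it was at 155, 147 and 96.1 CPM after PBS, 181, 162 and 144 CPM after BSA and 154, 126 and 129.9 CPM after IgG. In TRIM21 it was at 153, 179.6 and 168 CPM after PBS, 168, 134 and 120.3 CPM after BSA and 157, 155 and 138 CPM after IgG. All groups compared overlapped for Psmb6.

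Psmb7 was steadier, at 2373 to 3653 reads. In WT it was at 125, 129 and 121 CPM after PBS, 141, 145 and 115 CPM after BSA and 118, 131 and 122 CPM after IgG. Its TRIM21 levels were 135, 173 and 131 CPM after PBS, 126, 133 and 114 CPM after BSA and 118, 117 and 129 CPM after IgG. The high value was that of the TRIM21 PBS sample numbered 11, and the 3 TRIM21 PBS samples lay above the 3 TRIM21 IgG and the 3 WT PBS samples without overlap.

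The PA28 subunits were the least variable of the 8. Psme1 was at 50.4, 50.8 and 50.9 CPM after PBS, 58.4, 46.7 and 56.5 CPM after BSA and 47.4, 46.1 and 49.6 CPM after IgG in WT. In TRIM21 it was at 45.6, 42.2 and 53.8 CPM after PBS, 46.1, 46.4 and 42.4 CPM after BSA and 52.2, 46.0 and 45.8 CPM after IgG. Every TRIM21 BSA sample was below every WT BSA sample, and every WT IgG sample below every WT PBS sample. Psme2 was at 77.4, 74.98 and 73.5 CPM after PBS, 95.9, 75.6 and 73.6 CPM after BSA and 72.3, 72.3 and 70.1 CPM after IgG in WT. Its TRIM21 levels were 74.9, 63.1 and 77.6 CPM after PBS, 73.3, 74.5 and 65.2 CPM after BSA and 65.6, 67.2 and 75.4 CPM after IgG. The WT IgG samples lay just below the WT PBS and WT BSA samples for Psme2. The WT BSA sample numbered 10 was the highest for both PA28 genes. The coefficient of variation over the 18 samples was 9.15% for Psme1 and 9.58% for Psme2, against 10.8% for Psmb7, 14.6% for Psmb6, 22.5% for Psmb5 and Psmb9 and 23.8% for Psmb10.

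**Figure D2:**
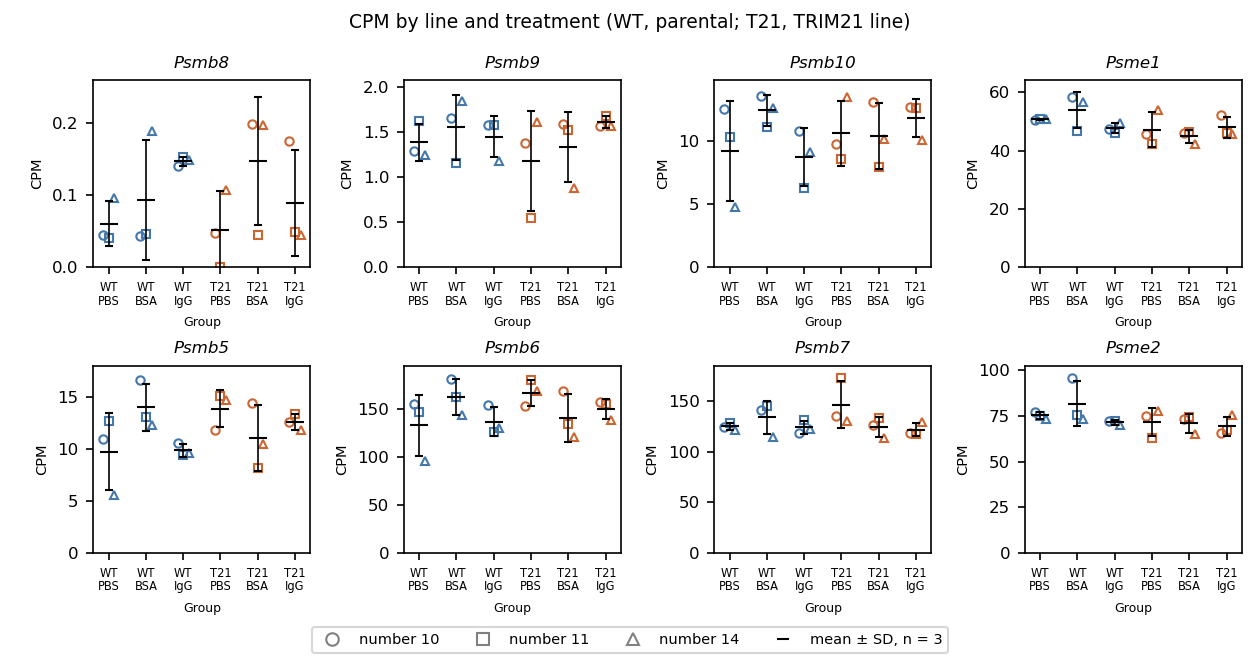
CPM of each gene by line and treatment, with 1 point per sample shaped by its number in the labels and a bar at the mean of the 3 samples with its SD. The 6 groups overlap widely for most genes, the WT PBS sample numbered 14 is lowest for Psmb10 (4.79 CPM) and Psmb5 (5.56 CPM), and the TRIM21 PBS sample numbered 11 is lowest for Psmb9 (0.550 CPM) and highest for Psmb7 (173 CPM).

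Set against its constitutive counterpart within each sample, each inducible subunit was the minor form in mRNA. Psmb8 was 0.238 ± 0.166% of Psmb5 per length (SD, n = 18 here and for the next 3 values), with 1 sample at 0. Psmb9 was 0.498 ± 0.122% of Psmb6, ranging from 0.157% to 0.663%. Psmb10 was 16.6 ± 4.46% of Psmb7, ranging from 7.92% to 22.0%. Psme1 was 53.2 ± 4.23% of Psme2, a pair that joins in 1 ring and whose members do not replace each other. By line, Psmb9 to Psmb6 was 0.530 ± 0.108% in WT and 0.466 ± 0.133% in TRIM21, and Psmb10 to Psmb7 was 16.0 ± 4.71% in WT and 17.2 ± 4.4% in TRIM21 (SD, n = 9 each). Within treatments Psmb9 to Psmb6 was 0.551 ± 0.120% in WT and 0.369 ± 0.185% in TRIM21 after PBS (SD, n = 3 in each group here). It was 0.496 ± 0.149% and 0.4798 ± 0.103% after BSA and 0.543 ± 0.0885% and 0.549 ± 0.0363% after IgG. Psmb10 to Psmb7 was 14.7 ± 6.23% in WT and 15.05 ± 5.41% in TRIM21 after PBS, 18.9 ± 3.35% and 16.9 ± 4.56% after BSA, and 14.4 ± 4.42% and 19.6 ± 3.39% after IgG. The TRIM21 mean was thus the higher of the pair after IgG and the lower after BSA for Psmb10 to Psmb7, within the spread of the samples. The ratios themselves were not tested. The ratio of Psme1 to Psme2 depends on the shared sequence of Psme2, and was 13.1% when only unshared windows were taken as length. That of Psmb8 to Psmb5 depends on the shared sequence of Psmb5, and was 0.185% with that length.

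The lines were compared to ask whether abundant TRIM21 goes with another setting of these genes. Averaged over the 3 treatments, no call was made for any of the 7 tested members between TRIM21 and WT, with 0 of 7 passing a Benjamini-Hochberg adjusted p of 0.05 in the edgeR quasi-likelihood test, where 6.18% of all 12140 tested genes passed. At an unadjusted p under 0.05 there were 0 members in edgeR, beside 21.4% of all tested genes, and 0 in DESeq2, and DESeq2 called 0. These are bulk samples, in which fewer expressing cells and less RNA per cell cannot be told apart. The median log2 fold change, TRIM21 over WT, was 0.033 over the members and 0.014 over all tested genes. Among the inducible subunits Psmb9 differed by -0.10 (SE 0.177, 95% interval -0.47 to 0.27) and Psmb10 by 0.13 (SE 0.159, -0.21 to 0.46). Among the constitutive subunits Psmb5 differed by 0.17 (SE 0.134, -0.11 to 0.46), Psmb6 by 0.087 (SE 0.0908, -0.10 to 0.28) and Psmb7 by 0.033 (SE 0.0639, -0.10 to 0.17). Their edgeR quasi-likelihood adjusted p-values lay between 0.482 and 0.803.

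Psme1 and Psme2 were the members closest to the threshold, both lower in TRIM21. Psme1 was at 46.7 ± 3.91 CPM in TRIM21 and 50.8 ± 4.23 CPM in WT (n = 9, SD), at a log2 fold change of -0.12 (SE 0.0594, edgeR quasi-likelihood adjusted p = 0.260). Psme2 was at 70.8 ± 5.41 and 76.2 ± 7.71 CPM, with a log2 fold change of -0.10 (SE 0.0610, adjusted p = 0.334). Within the samples numbered 10, 11 and 14 the Psme1 difference was -0.13, -0.10 and -0.15, and the Psme2 difference -0.20, -0.13 and 0.0017. Psmb5 and Psmb10 had most of their line difference in number 14, at 0.46 and 0.40, against 0.034 and -0.068 in number 10 and 0.023 and 0.063 in number 11. Without the WT PBS sample numbered 14 the average difference of Psmb5 was 0.08, that of Psmb10 0.02 and that of Psmb6 0.02. Without the TRIM21 PBS sample numbered 11 that of Psmb9 was -0.0042 and that of Psmb7 -0.021, the opposite sign.

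The precision differed between members. The 95% interval of the fold change ran from 0.845 to 1.00 for Psme1, from 0.851 to 1.02 for Psme2 and from 0.932 to 1.12 for Psmb7. It ran from 0.721 to 1.21 for Psmb9 and from 0.866 to 1.38 for Psmb10.

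Within each treatment 0 of 7 members passed as well, against 1.71% of tested genes after PBS, 0.848% after BSA and 0.774% after IgG. An unadjusted p under 0.05 was found for 19.8%, 10.3% and 7.79% of all tested genes in that order. After BSA the same-numbered samples of both lines deviated together, and with the number as a block 187 genes passed (103 without) and 0 of 7 members. With that block Psme1, given below without it, was at -0.26 (edgeR quasi-likelihood adjusted p = 0.216). After PBS, 1 member had an unadjusted p under 0.05 (DESeq2 3): Psmb5 at a log2 fold change of 0.50 (SE 0.233, edgeR quasi-likelihood adjusted p = 0.242), which was 0.23 without the WT PBS sample numbered 14 and 0.74 without that numbered 11. Psmb6 was at 0.33 (SE 0.157, adjusted p = 0.254) and Psmb7 at 0.23 (SE 0.111, adjusted p = 0.260) in the same edgeR quasi-likelihood comparison. Psmb6 was at 0.14 without the WT PBS sample numbered 14, and Psmb7 at 0.08 without the TRIM21 PBS sample numbered 11. Psmb9 was at -0.21 (SE 0.312) and at 0.096 without the TRIM21 PBS sample numbered 11, and Psmb10 at 0.21 (SE 0.277) and at -0.10 without the WT PBS sample numbered 14, both then of the opposite sign. After BSA, 1 member had an unadjusted p under 0.05 in either tool, Psme1 at -0.26 (SE 0.103, edgeR quasi-likelihood adjusted p = 0.366). After IgG there were 0 in either tool, and the largest differences were 0.43 for Psmb10 (SE 0.278) and 0.35 for Psmb5 (SE 0.235), with edgeR quasi-likelihood adjusted p-values of 0.748 and 0.751. The Psmb10 value was 0.24 without the WT IgG sample numbered 11. Every WT IgG sample had a higher share of reads outside genes than every TRIM21 IgG sample. The part of that share in the Psmb10 and Psmb5 differences was not tested.

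**Figure D3:**
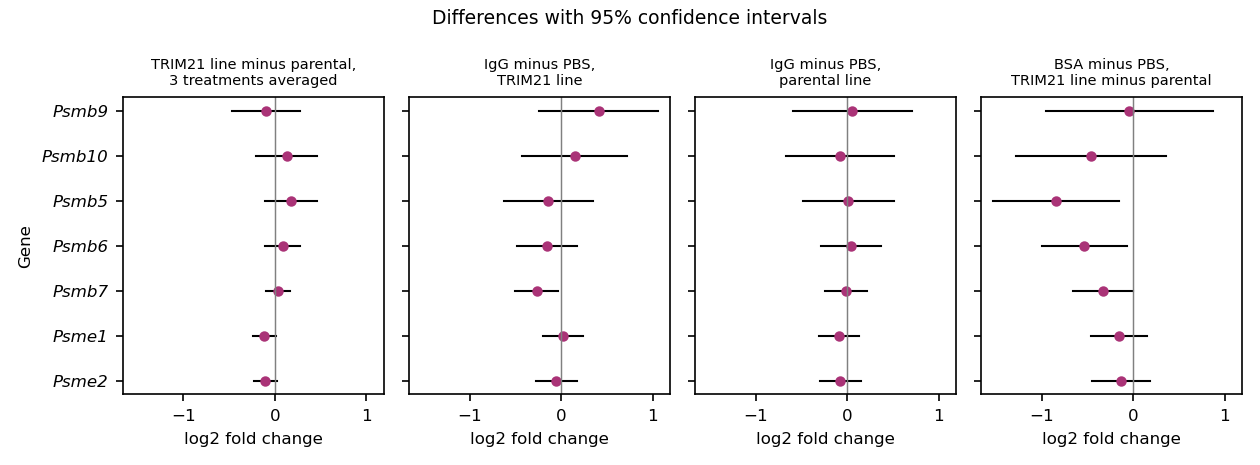
Log2 fold change of each tested gene with its 95% confidence interval, with a line at 0. The panels show the line average, IgG against PBS in TRIM21, IgG against PBS in WT, and the interaction of BSA against PBS with the line. The intervals for Psme1, Psme2 and Psmb7 are narrow (for the line average -0.24 to 0.01, -0.23 to 0.02 and -0.10 to 0.17), those for Psmb9 and Psmb10 are wide, and none of the values passed the adjusted threshold.

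Antibody was compared with PBS in the TRIM21 line to ask whether an antibody that TRIM21 can engage alters the expression of the machinery to which it delivers its targets. None of the 7 members passed, as was so for 0% of all tested genes (0 of 12140). For Psmb7 the groups did not overlap, with 118, 117 and 129 CPM after IgG and 135, 173 and 131 CPM after PBS. Its log2 fold change of -0.27 (SE 0.111, 95% interval -0.50 to -0.03) had an unadjusted p of 0.0273 and an edgeR quasi-likelihood adjusted p of 0.724, and it was -0.11 without the TRIM21 PBS sample numbered 11. Psmb9 was at 0.41 (SE 0.308, -0.24 to 1.06, edgeR quasi-likelihood adjusted p = 0.729), from 1.18 ± 0.557 CPM after PBS to 1.61 ± 0.0657 CPM after IgG (SD, n = 3 each). It became 0.11 without the TRIM21 PBS sample numbered 11 and 0.73 without that numbered 14. Psmb10 was at 0.15 (SE 0.274), Psmb5 at -0.14 (SE 0.231) and Psmb6 at -0.15 (SE 0.157). Psme1 was at 0.023 (SE 0.103) and Psme2 at -0.051 (SE 0.106). Without the TRIM21 PBS sample numbered 11 these were 0.034 for Psmb10, -0.058 for Psmb5, -0.078 for Psmb6, -0.034 for Psme1 and -0.12 for Psme2. The count at an unadjusted p under 0.05 was 1 member in edgeR and 1 in DESeq2, and 681 (5.61%) of all tested genes in edgeR.

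Antibody against BSA in the TRIM21 line sets the antibody beside another protein. It gave 0 of 7 members and 0% of all genes. At an unadjusted p under 0.05 there were 0 members in edgeR or DESeq2, beside 0.371% of all tested genes in edgeR. The differences ran from -0.034 for Psmb7 (95% interval -0.27 to 0.20) to 0.29 for Psmb9 (-0.35 to 0.92), and all had an edgeR quasi-likelihood adjusted p of 1.00. The Psmb9 value was 0.045 without the TRIM21 BSA sample numbered 14. BSA against PBS in the same line gave 0 of 7 and 0% of all genes. An unadjusted p under 0.05 was found for 1 member in either tool, beside 3.68% of all tested genes in edgeR. The member was Psmb7, at -0.23 (SE 0.111, edgeR quasi-likelihood adjusted p = 0.841), and -0.08 without the TRIM21 PBS sample numbered 11. Psmb9 was at 0.12 with that sample and -0.18 without it. These comparisons share the PBS or the IgG samples with the first and are no independent repeat of it.

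In WT cells, which lack the fusion, IgG against PBS gave 0 of 7 members and 0% of all genes. An unadjusted p under 0.05 was found for 0 members in either tool, beside 2.68% of all tested genes in edgeR. All 7 differences lay between -0.088 (Psme1) and 0.056 (Psmb9). The intervals were wider than these values, from -0.60 to 0.71 for Psmb9 and from -0.30 to 0.13 for Psme1. Without the WT PBS sample numbered 14 Psmb5 went from 0.011 to -0.26, Psmb10 from -0.074 to -0.37 and Psmb6 from 0.041 to -0.14.

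IgG against BSA in WT gave 0 of 7 and 0% of all genes. Differences ran from -0.51 for Psmb5 (SE 0.234, unadjusted p = 0.0445, edgeR quasi-likelihood adjusted p = 0.741) to -0.11 for Psmb7 and Psmb9. Same-numbered samples of these groups deviated together, and with the number as a block 0 genes passed. Psmb5 was then at -0.50 (edgeR quasi-likelihood adjusted p = 0.509). BSA against PBS gave 0 of 7 and 0% of all genes, with differences from 0.089 for Psme1 to 0.52 for Psmb5 (SE 0.233, unadjusted p = 0.0396, edgeR quasi-likelihood adjusted p = 0.982). In each of these comparisons Psmb5 was the 1 member at an unadjusted p under 0.05, in edgeR and in DESeq2. Of all tested genes 5.87% were under it for IgG against BSA and 2.49% for BSA against PBS in edgeR. The comparisons share the BSA samples and are not independent. Without the WT PBS sample numbered 14 the BSA over PBS difference was 0.25 for Psmb5, 0.13 for Psmb10 (0.43 with it) and 0.11 for Psmb6 (0.29 with it). That sample had the highest share of reads outside genes (18.8%) and the WT BSA sample numbered 10 the lowest (13.1%), and their part in these differences was not tested. Every WT IgG sample had a higher share (16.3% to 17.3%) than every WT BSA sample (13.1% to 15.9%). The part of this in the IgG against BSA differences of Psmb5 and Psmb10 was not tested.

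Interactions tested whether the lines differed in their response to a treatment. For IgG against PBS 0 of 7 members and 0% of all genes passed. At an unadjusted p under 0.05 there were 0 members in either tool, beside 1.82% of all tested genes in edgeR. Values ran from -0.25 for Psmb7 (SE 0.157) to 0.35 for Psmb9 (SE 0.437), all with an edgeR quasi-likelihood adjusted p of at least 0.972. Without the TRIM21 PBS sample numbered 11 the Psmb9 value was 0.053 and that of Psmb7 -0.10. Without the WT PBS sample numbered 14 that of Psmb5 went from -0.15 to 0.13 and that of Psmb10 from 0.22 to 0.53. For IgG against BSA 0 of 7 and 0% passed. An unadjusted p under 0.05 was found for 1 member in either tool, beside 3.97% of all tested genes in edgeR. The member was Psmb5, at 0.69 (SE 0.329, edgeR quasi-likelihood adjusted p = 0.843), and Psmb10 was at 0.68 (SE 0.389) with the same adjusted p. This interaction uses the WT IgG and WT BSA samples, whose shares of reads outside genes did not overlap. The part of that share in these values was not tested. For BSA against PBS 0 of 7 and 0% passed, with 3 members at an unadjusted p under 0.05 in either tool, all of them constitutive catalytic subunits. They were Psmb5 at -0.84 (SE 0.328), Psmb6 at -0.54 (SE 0.222) and Psmb7 at -0.33 (SE 0.157), each with an edgeR quasi-likelihood adjusted p of 0.651. Of all tested genes 790 (6.51%) had an unadjusted p under 0.05 in that interaction. Without the WT PBS sample numbered 14 the Psmb5 value was -0.57 and that of Psmb6 -0.36, and without the TRIM21 PBS sample numbered 11 that of Psmb7 was -0.19.

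The spread that limits these comparisons was shared between some members and not others. Over the 18 samples the log2 CPM of Psmb5 correlated with that of Psmb6 at r = 0.92 and with that of Psmb10 at 0.82, and Psmb6 with Psmb10 at 0.77. Psme1 and Psme2 correlated at 0.64. Psmb7 stood apart from this group, at 0.36 with Psmb5, 0.47 with Psmb6 and -0.13 with Psmb10, its inducible counterpart. Psmb9 was at 0.014 with Psmb6, its constitutive counterpart, and at -0.54 with Psmb7. The TRIM21 PBS sample numbered 11 had both the lowest Psmb9 (0.550 CPM) and the highest Psmb7 (173 CPM), and r without it was not computed. Psmb5, Psmb6 and Psmb10 were each lowest in the WT PBS sample numbered 14 (5.56, 96.1 and 4.79 CPM). Their r with each other without that sample was not computed either. The correlations describe likeness over samples that may share library preparation and were not tested.

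Psmb5, Psmb6 and Psmb10 were lower in libraries with more reads outside annotated genes, a measure looked at after the data were seen. Over 18 samples Psmb5 had r = -0.87 (two-sided permutation p = 1e-05, the smallest that the permutations can give) and Spearman's rho = -0.77 (p = 0.00027). Psmb6 had r = -0.79 (permutation p = 6e-05) and rho = -0.76 (p = 0.00028), and Psmb10 had r = -0.75 (permutation p = 0.00039) and rho = -0.75 (p = 0.00058). With Benjamini-Hochberg adjustment over all 12140 tested genes the permutation p-values for r were 0.00282, 0.00517 and 0.0112 in that order, and those for rho 0.00973, 0.00991 and 0.0143. Of 7 member relations 3 thus passed, where 12.3% of all tested genes passed by r and 11.7% by rho, in either direction. The 4 others did not: r was -0.24 for Psmb7, -0.34 for Psme1, -0.39 for Psme2 and -0.16 for Psmb9, with permutation p-values of 0.111 to 0.503 and, adjusted over all tested genes, of 0.284 to 0.692. Their rho lay between -0.41 (Psmb9) and -0.21 (Psmb7), with permutation p-values of 0.0905 to 0.406 and adjusted values of 0.260 to 0.626.

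Left without the 2 samples farthest from the median share, the WT PBS sample numbered 14 and the WT BSA sample numbered 10, r was -0.79 for Psmb5, -0.63 for Psmb6 and -0.58 for Psmb10 (n = 16). Within WT it was -0.90, -0.84 and -0.79 and within TRIM21 -0.88, -0.73 and -0.68 for these genes in that order (n = 9 each). Within the 6 samples of a number it ran from -0.97 to -0.85 for Psmb5, from -0.93 to -0.57 for Psmb6 and from -0.97 to -0.39 for Psmb10. With group means removed it was -0.89 for Psmb5, -0.77 for Psmb6 and -0.72 for Psmb10. The sign was negative for these 3 genes in each of these subsets. It was also negative in each of them for Psmb7 (r from -0.66 to -0.064) and Psme1 (r from -0.56 to -0.083), which did not pass. For Psmb9 and Psme2 it was positive within number 11 (r = 0.32 for each), and for Psme2 also within TRIM21 (0.038). Whether the sign sets the passing genes apart was not tested. What sets the share of reads outside genes in these libraries was not tested.

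**Figure D4:**
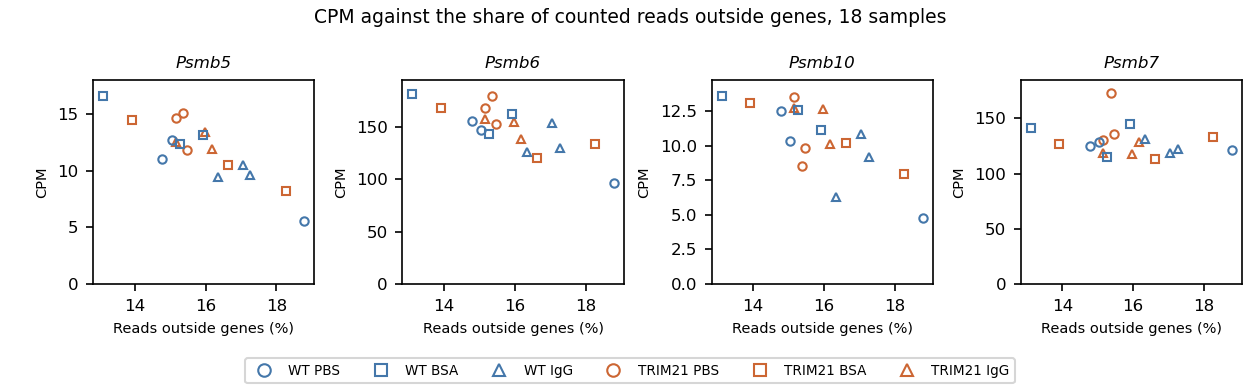
CPM of Psmb5, Psmb6, Psmb10 and Psmb7 against the percentage of counted reads outside annotated genes. Each point is 1 sample, coloured by line and shaped by treatment. Psmb5, Psmb6 and Psmb10 are lower toward the right (r = -0.87, -0.79 and -0.75 on the log2 scale), and Psmb7 shows no relation that passed.

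The genes most like each member over the 18 samples were named as a description, by Pearson's r of log2 CPM among tested genes with a mean of at least 1 CPM. For Psmb5 they were Myg1 (r = 0.95), Lamtor1 (0.94) and Nubp2 (0.94), and for Psmb6 Eif3i (0.97), 0610010K14Rik (0.96) and Mdh2 (0.95). For Psmb10 they were Pgls (0.98), Ndufs7 (0.97) and Rplp0 (0.96). Psmb7 was most like Gcsh (0.94), Psmc1 (0.93), which encodes an ATPase of the regulatory particle of the proteasome, and Tamm41 (0.93). The highest level stood far above the mean for Gcsh (97.1 against 61.7 CPM), Psmc1 (178 against 137 CPM) and Tamm41 (39.6 against 24.1 CPM). That of Psmb7 did so too (173 against 129 CPM). For Psmb10 it was the lowest level that stood far from the mean (4.79 against 10.5 CPM). The same held for Pgls (22.9 against 60.3 CPM), Ndufs7 (15.6 against 37.8 CPM) and Rplp0 (1545 against 2908 CPM). Values of r without single samples were not computed for any member. Psme1 was most like Nme3 (0.86), Tuba1a (0.85) and Ift27 (0.83), and Psme2 most like Pet100 (0.89), Chmp2a (0.87) and Mgst2 (0.86). For Psmb9 they were Gm20748 (0.88), Ech1 (0.84) and Fcgr4 (0.82), and the lowest level of Fcgr4 and of Psmb9 was 0.550 CPM, against means of 1.47 and 1.42 CPM. For Psmb8, whose 0 to 6 reads make any likeness rough, they were Myo7a (0.83), Sema3b (0.82) and Col6a3 (0.79). None of the closest 3 of any member was another member.

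Around the members, 68 of 70 listed genes of the proteasome and of class I antigen processing were expressed highly enough to be tested, in 6 lists. Between the lines, averaged over treatments, 2 of the 68 passed, 1 in each direction, beside the 6.18% of all tested genes (DESeq2 called 4). The 11 tested core subunits outside the catalytic ones had 0 calls, 10 positive values and a median log2 fold change of 0.045, with Psmb3 at 0.13 and Psma7 at 0.084. The 8 assembly factors and other activators or inhibitors of the core had 0 calls, 8 positive values and a median of 0.069, with Psme3 at 0.16 and Psmf1 at 0.088. The 21 genes of the regulatory particle, which recognises ubiquitin and unfolds substrates, had 0 calls, 20 positive values and a median of 0.090, with Psmc5 at 0.22 (edgeR quasi-likelihood adjusted p = 0.0991) and Psmc4 at 0.16. The median over all tested genes was 0.014. These signs were not shared by the treatments: the other core subunits had 11 of 11 positive values after PBS (median 0.21) and 0 of 11 after BSA (median -0.11), and the regulatory particle 20 of 21 (0.28) and 5 of 21 (-0.050). Without the TRIM21 PBS sample numbered 11 the average had 6 of 11 positive values in the other core subunits (median 0.0069) and 18 of 21 in the regulatory particle (0.048). Without the WT PBS sample numbered 14 these were 7 of 11 (0.016) and 19 of 21 (0.082). The 4 regulators of the constitutive subunits had 0 calls, with Ddi2, the protease that activates Nfe2l1, at 0.33 and Ngly1 at -0.092.

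The 2 calls lay on the antigen processing side. H2-K1, a class I heavy chain, fell to 10.6 ± 0.617 CPM in TRIM21 from 13.7 ± 2.12 CPM in WT (n = 9, SD), at a log2 fold change of -0.36 (SE 0.0771, edgeR quasi-likelihood adjusted p = 0.00754). Its call remained in each of the 18 fits that left out 1 sample, and 8.11% of the 50-base windows of its longest transcript also occur in transcripts of other genes, among them H2-D1, so its counts carry some uncertainty. The other 9 tested genes of class I antigen processing had no call. Nlrc5, the transactivator of class I genes and of Psmb9, rose to 2.20 ± 0.497 CPM in TRIM21 from 1.505 ± 0.397 CPM in WT (n = 9, SD), at a log2 fold change of 0.56 (SE 0.161, edgeR quasi-likelihood adjusted p = 0.0463). Its call was lost in 13 of the 18 fits that left out 1 sample, with adjusted p-values from 0.0139 to 0.1104. The other 13 genes of interferon signalling had no call, and the list's median was -0.044.

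Antibody against PBS in the TRIM21 line gave 0 calls in the 68 listed genes, beside 0% of all tested genes, with 14 of the 68 (20.6%) at an unadjusted p under 0.05, beside 5.61% of all tested genes, and 0 called by DESeq2. The 11 other core subunits were all negative, with a median of -0.26 and with Psma4 at -0.29 and Psma2 at -0.32. The 21 genes of the regulatory particle had 2 positive values and a median of -0.19, with Psmc1 at -0.27 and Psmd12 at -0.31, and the 8 assembly factors and other activators a median of -0.14, with Psme3 at -0.28 and Pomp at -0.25. Without the TRIM21 PBS sample numbered 11 the median was -0.16 for the other core subunits (1 of 11 positive), -0.046 for the regulatory particle (7 of 21 positive) and -0.0088 for the assembly factors. BSA against PBS, which shares the PBS samples, gave medians of -0.24, -0.23 and -0.18 for these 3 lists, and IgG against BSA gave -0.028, 0.0058 and 0.018. Beside these, the catalytic subunits Psmb7, Psmb5 and Psmb6 were at -0.27, -0.14 and -0.15. The 10 genes of class I antigen processing had a median of -0.033, with Tap1 at 0.43 and Tapbp at 0.29. The 14 genes of interferon signalling had a median of 0.092, with Tyk2 at 0.32 and Stat2 at 0.45. Of the 4 regulators of the constitutive subunits Nfe2l1 was at 0.15 and Ngly1 at -0.053. The median over all tested genes was 0.0080, and the genes named here had edgeR quasi-likelihood adjusted p-values of 0.724 to 0.870.

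In the interaction of IgG against PBS with the line the 68 listed genes again had 0 calls, beside 0% of all tested genes. The largest departures in each list by unadjusted p were Psma6 at -0.32 and Psmb2 at -0.23, Psme3 at -0.34 and Pomp at -0.18, Psmd11 at -0.31 and Psmd2 at -0.27, Tap1 at 0.43 and Canx at -0.26, Tyk2 at 0.41 and Irf9 at 0.51, and Nfe2l1 at 0.14 and Ddi2 at -0.11, with edgeR quasi-likelihood adjusted p-values of 0.972 to 0.982. In the 10 remaining comparisons the listed genes also had 0 calls in edgeR, with 0 to 15 at an unadjusted p under 0.05. The 15 (22.1%) were found after PBS between the lines, where 19.8% of all tested genes were under it. There were 11 (16.2%) in the interaction of BSA against PBS with the line, beside 6.51% of all tested genes. BSA against PBS in TRIM21 had 9 (13.2%), beside 3.68%. Both use the TRIM21 PBS samples. In the rest of the 10 the share was 0% to 5.88%, beside 0.371% to 10.3% of all tested genes. DESeq2 called 2 after PBS and 1 after BSA between the lines.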

How the data were processed

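Poly(A)-selected, strand-specific RNA libraries of 18 cultures were sequenced. The deposited files hold raw counts of reads per gene symbol and sample. The submitters' processing notes name bcl2fastq 2.19.1.403, FastQC 0.11.5, STAR 2.5.1b, HTSeq 0.6.0, DESeq2 1.6.3 and the build mm10. The annotation, the strand setting and the filters behind the counts are not given in the sources used here. The closing lines of each file (reads outside genes, ambiguous reads, 0.473% to 0.63% of counted reads) were kept out of library sizes and tests.

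Samples were grouped by line and treatment from the labels. Genes were kept by edgeR's filterByExpr with its defaults (minimum count 10, minimum total 15), which left 12140 of 24062, and were scaled by TMM. Each comparison was tested with edgeR 4.0.16 (quasi-likelihood, glmQLFit and glmQLFTest, all 18 samples, 1 mean per group) in R 4.3.3, with Benjamini-Hochberg adjustment over all tested genes and a threshold of 0.05. The line average, the line difference within each treatment, the treatment differences within each line and their interactions make 13 comparisons. Levels are CPM, and RPKM by the union of GENCODE M21 exons. Permutation tests used 100000 permutations. The procedure was tested on simulated counts.

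Pairs of samples of 1 group differed by 10.6 to 82.0 in chi-square per degree of freedom, so no library was counted as deposited again. Same-numbered samples had correlations of deviations from group means over 0.1 for all 3 numbers in 6 of 15 pairs of groups. Among them were WT and TRIM21 after BSA, and IgG and BSA in WT. There, results with the number as a block are given beside those of the main fit. Members and lists were chosen with earlier results of these data known. The rule for named genes took all 8 members, the 3 genes most like each, up to 3 passing genes of each list and, where none passed, the 2 with the smallest unadjusted p, given by value. The last step is printed for the line average, for IgG against PBS in TRIM21 and for its interaction. Alternatives were DESeq2 size factors, no filter, the replicate number as a block, the DESeq2 1.42.0 Wald test, only the groups compared, leaving out each sample, and other lengths and scalings for levels. Fits within each number, the length in unshared windows and the lists without either outlying PBS sample were added after seeing the data.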

Additional observations from a re-analysis of the deposited data

How the results depend on the processing

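The count of members called was 0 in all 13 comparisons under each alternative, of 7 tested or, without the filter, of 8. Of 91 member differences 0 changed sign under alternatives that kept all samples, and 25 did when 1 sample was left out, none of them called. Of 2107 alternative values 2064 moved by less than 1 SE and 43 by more. The smallest adjusted p of a member in any of these edgeR or DESeq2 fits was 0.0831 (Psmb6 after PBS between the lines, with the replicate block).

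The labels do not say whether the numbers pair the samples. Same-numbered samples of different groups had a mean correlation of 0.218, over 0.1 in 32 of 45 pairs (-0.323 to 0.578), and 16 of 18 samples were closest to their own number. With the replicate block the genes called numbered 1462 for the line average (750 without), 847 after PBS (208), 187 after BSA (103) and 173 after IgG (94), and 0 members. Members came closer to the threshold with it. For the line average the edgeR quasi-likelihood adjusted p was then 0.181 for Psme1 and 0.268 for Psme2. After PBS it was 0.133 for Psmb5, 0.0831 for Psmb6 and 0.147 for Psmb7 in the same fit. DESeq2 called 441, 158 and 158 after PBS, BSA and IgG, and a fit of only the groups compared 44 after PBS and 179 after IgG. Within numbers 10, 11 and 14 the line average had 288, 60 and 135 calls. Leaving out 1 sample gave 517 to 1268 for the line average, 104 to 1018 after PBS, 66 to 138 after BSA and 69 to 148 after IgG. Without the TRIM21 PBS sample numbered 14 the first 2 were 1268 and 1018, without the WT PBS sample numbered 14 the count after PBS was 104, without the TRIM21 PBS sample numbered 11 it was 122 and the count after IgG 148, and without the TRIM21 BSA sample numbered 10 the count after BSA was 66.

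With the longest transcript as length the levels were 0.0513 RPKM for Psmb8, 0.491 for Psmb9, 8.04 for Psmb10, 153 for Psmb6, 45.3 for Psmb7, 24.5 for Psme1 and 76.4 for Psme2, and the ratios 0.422% (Psmb8 to Psmb5), 0.326% (Psmb9 to Psmb6) and 32.2% (Psme1 to Psme2). With unshared windows the levels were 0.0554 RPKM for Psmb8, 0.4995 for Psmb9, 8.35 for Psmb10 and 32.5 for Psmb5. Psmb6 was then at 165, Psmb7 at 46.1, Psme1 at 25.8 and Psme2 at 197 RPKM. The ratios were 0.185% (Psmb8 to Psmb5), 0.309% (Psmb9 to Psmb6) and 13.1% (Psme1 to Psme2). The lengths differ by construction. Without TMM the levels moved by less than 1 SD. Depth limits Psmb8, at 0 to 6 reads, and Psmb9, at 11 to 49 reads.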

Other observations

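Relatives of the members outside the 8 genes differed widely in level. Psme3, which encodes the third PA28 subunit and forms a ring of its own in the nucleus, was at 56.4 ± 9.04 RPKM (SD, n = 18). Psme2 was at 41.6 RPKM on the same scale, and at 76.4 or 197 RPKM with the longest transcript or the unshared windows as its length. Psmb11, the catalytic subunit of the thymus, had 0 to 2 reads in each sample. Psme2b, a copy close to Psme2, had 24 to 50 reads. Tap2, the neighbour of Psmb8, was at 6.04 ± 1.12 RPKM (SD, n = 18) where Psmb8 was at 0.0289 RPKM. Irf1, an interferon-responsive transcription factor, was at 10.8 ± 0.974 RPKM (SD, n = 18).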
